A study of Drosophila melanogaster with 8 samples.

Results

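The cytosolic ribosomal protein genes of Drosophila melanogaster were followed in ovaries that lacked normal piwi function and in ovaries depleted of RnpS1. Members were the rows of the gene count tables whose FlyBase symbol begins with RpL (large subunit) or RpS (small subunit), without the mitochondrial mRpL and mRpS genes. This gave 87 of 15682 gene identifiers, 36 of them RpS and 51 RpL. Of the 92 such symbols in the name table, 5 (RpL19, RpL27A, RpL31, RpS10b and RpS12) had no row under their identifier and were not analysed here. A symbol is not a role: RpL24-like, RpL7-like and RpLP0-like are relatives of yeast proteins that assemble the large subunit (Rlp24, Rlp7 and Mrt4), and they were kept because the naming rule includes them.

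Each ribosome carries a single copy of nearly every one of these proteins, except for the acidic stalk proteins RpLP1 and RpLP2, which are present in several copies. The proteins are made in the cytoplasm, enter the nucleolus and assemble there on ribosomal RNA. In the fly ovary the nurse cells fill each egg with ribosomes, so these mRNAs are among the most abundant of the tissue. Flies with a single working copy of many of these genes show the Minute phenotype of slow growth and short bristles.

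Total RNA was sequenced from ovaries of flies aged 4 to 6 days, in 4 groups of 2 libraries. The piwi mutant carried the alleles piwi1 and piwi2 in trans. Its control carried the nos-GAL4-VP16 driver, which is active in germ cells. RnpS1 knockdown ovaries carried dsRNA-RnpS1 under tj-GAL4, a driver of the somatic follicle cells, together with shRNA-RnpS1 under nos-GAL4-VP16. The RnpS1 control carried both drivers without the hairpins. Piwi is the nuclear protein that silences transposons with small RNAs, and RnpS1 is an accessory factor of the exon junction complex, which marks spliced mRNA. Other cells of the ovary, such as its muscle sheath, are not targets of either driver. The study set each tested genotype against its own control, so the main comparisons share no library. Whether libraries of 1 group came from separate flies is not stated, so p-values measure the spread between these libraries only.

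Gene counts per library ran between 37426999 and 86692865, so counting error is small for all but the few members near 0. RnpS1 itself had 8.75 and 3.78 CPM (reads of a gene relative to all gene reads of its library, scaled as usual) in knockdown libraries, against 45.0 and 39.6 CPM in RnpS1 control libraries (log2 fold change -2.88, SE 0.366, edgeR adjusted p = 0.0207). The piwi transcript was still measured in the mutant, at 202 and 193 CPM against 316 and 312 CPM in control libraries (log2 fold change -0.83, SE 0.133, edgeR adjusted p = 0.0185), which does not check the alleles at the protein level. It was also lower in knockdown libraries, with 189 and 156 CPM against 414 and 337 CPM in RnpS1 control libraries (log2 fold change -1.24, SE 0.134, edgeR adjusted p = 0.0149). Summed levels of ovarian cell markers moved strongly with the piwi groups. The 18 eggshell genes summed to 829 and 2164 CPM in mutant libraries and to 12468 and 8983 CPM in piwi control libraries, and 13 muscle sheath genes to 2307 and 3707 CPM against 1122 and 684 CPM. Knockdown libraries had 4475 and 16216 CPM of eggshell genes, against 10726 and 24452 CPM in RnpS1 control libraries, so these groups overlapped.

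Summed together, the ribosomal protein genes held close to the same share of the gene counts in every library. They made up 7.23% and 7.29% of the counts in piwi mutant libraries (7.26% ± 0.0393, SD, n = 2), against 7.82% and 6.96% in piwi control libraries (7.39% ± 0.609, SD, n = 2). The control pair encloses the mutant pair. In knockdown libraries the share was 8.30% and 7.53% (7.91% ± 0.546, SD, n = 2), against 7.29% and 7.22% in RnpS1 control libraries (7.26% ± 0.0531, SD, n = 2). Both knockdown values lay above both control values, but an exact two-sided permutation test of 2 against 2 libraries cannot give a p below 0.333. Over TMM effective library sizes, the mean shares were 6.87% in the mutant against 7.80% in the piwi control and 7.60% in the knockdown against 7.56% in the RnpS1 control, so the gap of the knockdown nearly closed and one opened in the piwi comparison. The genes of the mitochondrial ribosome, a separate machine, held 0.321% ± 0.0101 of mutant counts and 0.290% ± 0.000910 of piwi control counts (SD, n = 2 each). Their share was 0.319% ± 0.00331 in the knockdown and 0.299% ± 0.0141 in its control (SD, n = 2 each). These mitochondrial shares are over library totals alone. With TMM scaling, the median log2 fold change of the 70 mitochondrial genes tested was -0.045 in the mutant and -0.014 in the knockdown. In bulk ovaries, fewer cells of a type and less RNA per cell cannot be told apart.

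**Figure D1:**
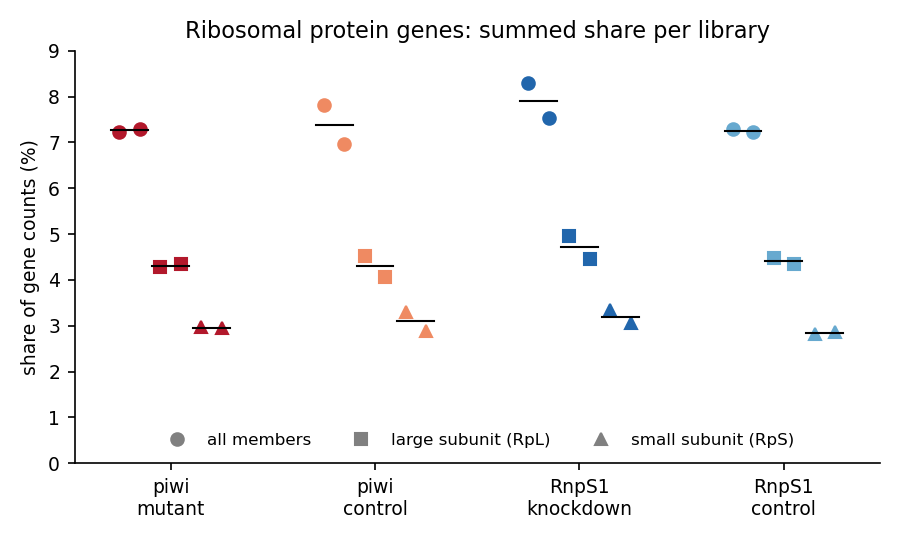
Share of all gene counts (%, vertical axis from 0) taken by all members, by the large subunit genes and by the small subunit genes in the 4 groups; each symbol is 1 library and black lines are the means of 2. All members lie between 6.96% and 8.30% in every library.

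Members stood high in the tissue. Of the 87 genes, 80 averaged at least 20 CPM over the 8 libraries, with a median of 889 CPM and a range of 33.0 to 3396 CPM. Among the 10434 genes tested, the median member of these 80 stood at percentile 98.7 of the mean level and the lowest at percentile 51.0. Levels between genes were compared per kilobase of exon, since a longer mRNA gives more fragments. Exon length here merges all annotated transcripts of a gene, so it can exceed the length of the mRNA present and lower the value. On that scale the 80 members had a median level of 1001 CPM per kb, and 63 of them lay within 2-fold of it. The extremes nevertheless differed by 294-fold.

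RpL41, which encodes the smallest protein of the ribosome, had the highest level at 10613 CPM per kb, on an exon length of 320 bases. RpS27A, whose product is made as a fusion to ubiquitin, followed at 2773 CPM per kb, then RpL21 at 2344 and RpL23 at 1876 CPM per kb. RpL40, the other ubiquitin fusion gene, stood at 1051 CPM per kb. The stalk genes RpLP0, RpLP1 and RpLP2 had 1010.0, 1382 and 1014 CPM per kb. RpL5 and RpL11, whose proteins bind the 5S ribosomal RNA together, had 568 and 890.1 CPM per kb. Their order depends on the merged exon lengths of 3835 and 1017 bases, since their mean levels were 2180 and 905 CPM. The lowest levels among members tested belonged to RpL22-like at 0.426, RpS10a at 1.40, RpS19b at 1.78, RpL22 at 36.1 and RpS15Ab at 45.6 CPM per kb. All 5 have a related copy in the genome or are such a copy.

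Replicates set the limit of what could be seen. Over the 80 members, the median absolute log2 ratio between the libraries of a group was 0.08 in the piwi mutant, 0.18 in its control, 0.18 in the knockdown and 0.20 in its control. The widest single gaps were 0.52 for RpL34b in the mutant, 1.04 for RpL23A in the piwi control, 0.83 for RpL28 in the knockdown and 0.85 for RpL22 in the RnpS1 control.

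In piwi mutant ovaries most ribosomal protein mRNAs moved little, and 2 passed the test, both higher. Of 83 members tested, 2 were called higher and 0 lower at an adjusted p under 0.05, while of all genes tested 6.37% were called higher and 5.06% lower (11.4% in either direction). The median log2 fold change of the members was -0.17, against 0.0095 over all genes, with 67 members negative and 16 positive (44 and 39 when scaled by library totals alone, which shifts the median of all genes to 0.17 and leaves members minus all genes at -0.18). Fold changes throughout are scaled by TMM factors, so they can differ from the ratio of the CPM values beside them. Changes were narrow: 75 of 83 members (90.4%) had an absolute log2 fold change under 0.5, against 59.7% of all genes. This was not particular to them. The share was 100% for translation initiation factors, 97.1% for mitochondrial ribosomal proteins and 90.9% for ribosome biogenesis factors. It was 88.9% for RNA polymerase I genes, 83.3% for elongation factors and 71.4% for growth regulators. Level was not matched in these shares: the median of the 80 members at or above 20 CPM stood at percentile 98.7 of genes tested. At an unadjusted p under 0.05, 5 members were higher (background 17.1% of all genes) and 22 lower (background 15.3%), which is 32.5% of members against 32.4% of all genes in either direction. DESeq2 called 6 members higher and 13 lower, against 12.7% and 11.5% of all genes (24.2% in either direction).

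The 2 members called higher were RpL37A and RpS10a. RpL37A, a zinc-binding protein of the large subunit, had 553 and 521 CPM in mutant libraries, against 270.2 and 289 CPM in piwi control libraries. The groups were well apart (log2 fold change 0.78, SE 0.191, edgeR adjusted p = 0.0447). RpS10a is the minor copy of the small subunit gene RpS10 and had 0.857 and 0.883 CPM in mutant libraries, against 0.160 and 0.190 CPM in piwi control libraries. Its log2 fold change was 2.14 (SE 0.545, edgeR adjusted p = 0.04997). For both genes the piwi control was the lowest of the 4 groups. The RnpS1 control libraries had 778 and 541 CPM of RpL37A and 1.13 and 0.846 CPM of RpS10a. Neither call was made when any of the 4 libraries of this comparison was left out: the adjusted p of RpL37A reached 0.179 and that of RpS10a 0.196.

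Other minor copies had larger values in the mutant without passing the test. RpS19b, the second copy of RpS19, had 2.81 and 2.10 CPM in mutant libraries, against 0.695 and 0.296 CPM in piwi control libraries (log2 fold change 2.15, SE 0.644, edgeR adjusted p = 0.0724). RpL22-like, the second copy of RpL22, had 0.236 and 1.30 CPM against 0.107 and 0.0211 CPM, so the mutant libraries themselves differed widely (log2 fold change 3.44, SE 1.08, edgeR adjusted p = 0.0787). All 3 of these genes remained under 3 CPM in every library.

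Among the members with negative values, the 3 with the smallest p were RpS6, RpL36 and RpL7A. RpS6 is the ribosomal protein phosphorylated by S6 kinase in response to TOR signalling. It had 1136 and 1057 CPM in mutant libraries, against 1466 and 1224 CPM in piwi control libraries (log2 fold change -0.45, SE 0.121, edgeR adjusted p = 0.0553). RpL36 had 655 and 686 CPM against 869 and 814 CPM in the control (log2 fold change -0.49, SE 0.136, edgeR adjusted p = 0.0620). RpL7A had 1058 and 1075 CPM against 1474 and 1219 CPM in the control (log2 fold change -0.50, SE 0.139, edgeR adjusted p = 0.0625). In each of these genes both mutant libraries lay below both control libraries, yet none passed. RpL36 passed in 4 of the 16 other settings and left-out libraries, and RpS6 and RpL7A in 1 each.

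The lowest fold changes belonged to RpL23A, RpL28 and RpS13. RpL23A, which lies at the exit of the peptide tunnel, had 171 and 143 CPM in mutant libraries, against 348 and 169 CPM in piwi control libraries. Here the groups overlapped, and the log2 fold change of -0.88 (SE 0.302, edgeR adjusted p = 0.0974) was -0.26 without the first control library and -1.31 without the second, where it passed (edgeR adjusted p = 0.0467). RpL28 had 296 and 299 CPM against 525 and 373 CPM in the control (log2 fold change -0.75, SE 0.300, edgeR adjusted p = 0.134). RpS13 had 474 and 539.6 CPM against 749.9 and 613 CPM in the control (log2 fold change -0.59, SE 0.180, edgeR adjusted p = 0.0757). RpS2, the gene known as string of pearls for its oogenesis phenotype, had 963 and 1137 CPM against 1314 and 891 CPM in the control, with overlapping groups (log2 fold change -0.23, SE 0.251, edgeR adjusted p = 0.561).

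Markers of other cell types moved with the same groups. All 18 eggshell genes had negative log2 fold changes in the mutant (4 called lower) and all 13 muscle sheath genes positive ones (1 called higher), with medians of -3.60 and 2.43. The 10 fat body genes (3 called higher) summed to 3027 and 4022 CPM in mutant libraries, against 6369 and 4503 CPM in piwi control libraries, and 9 haemocyte genes (3 called higher) to 856 and 1130 CPM against 677 and 423 CPM. The sum does not give the sign of each gene: 7 of the 10 fat body genes and 7 of the 9 haemocyte genes had positive log2 fold changes, with medians of 2.72 and 4.75. The fat body list includes the yolk protein genes Yp1, Yp2 and Yp3, so its sums, here and in the knockdown, are not those of fat body genes alone. Of the haemocyte list, He was at 0 in the piwi control. In the gut list (0 of 11 tested called by edgeR), with 84.1 and 139 CPM against 82.2 and 75.8 CPM, deltaTry was at 0 in mutant libraries and deltaTry and thetaTry were at 0 in piwi control libraries. All 11 gut genes tested had positive log2 fold changes, with a median of 3.12. The 11 germline genes (1 called higher, 3 lower) summed to 3804 and 3990 CPM against 4727 and 4787 CPM, and the follicle and early somatic genes (2 of 9 tested called higher) to 157 and 165 CPM against 159 and 87.6 CPM. The part of these cell types in the values of the ribosomal protein genes was not tested.

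**Figure D2:**
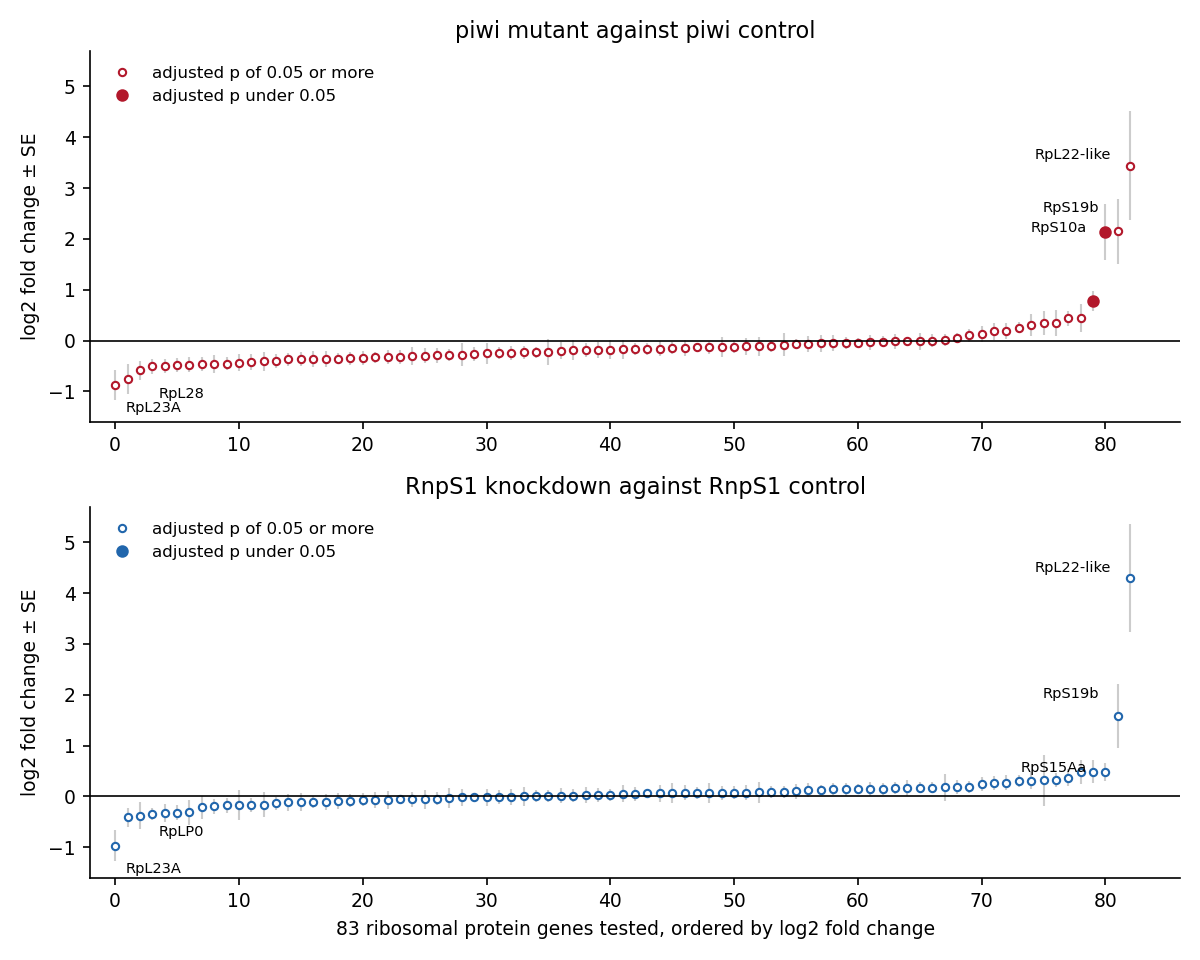
Log2 fold change with its standard error (vertical axis) of the 83 members tested, ordered from lowest to highest in each panel, for piwi mutant against piwi control (top) and RnpS1 knockdown against RnpS1 control (bottom); filled points have an adjusted p under 0.05. In the top panel 67 members are below 0 (44 with library totals alone) and 2 are filled, and in the bottom panel 33 are below 0 (14 with library totals alone) and none is filled.

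In RnpS1 knockdown ovaries no ribosomal protein mRNA passed the test in either direction. Called higher were 0 of 83 members and called lower 0, against 0.882% and 0.738% of all genes tested by edgeR (1.62% in either direction). The median log2 fold change of the members was 0.06, against 0.0051 over all genes, with 50 members positive and 33 negative (69 and 14 when scaled by library totals alone, with a median of 0.12 over all genes). An absolute log2 fold change under 0.5 was found for 80 members (96.4%), against 68.4% of all genes. The share was 100% for initiation factors, mitochondrial ribosomal proteins and biogenesis factors alike. It was 88.9% for RNA polymerase I genes, 83.3% for elongation factors and 76.2% for growth regulators. Level was not matched in these shares either. At an unadjusted p under 0.05, 4 members were higher (background 10.1% of all genes) and 2 lower (background 8.07%), or 7.23% of members against 18.2% of all genes in either direction. DESeq2 called 1 member higher (RpL22-like) and 2 lower (RpLP1 and RpL23A), while it called 5.01% of all genes higher and 4.77% lower (9.78% in either direction).

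RpL22-like was again a minor copy with a large value. It had 1.27 and 1.17 CPM in knockdown libraries, against 0.0666 and 0.0413 CPM in RnpS1 control libraries, that is 197 reads against 7 (log2 fold change 4.30, SE 1.06, edgeR adjusted p = 0.103). RpS19b had 1.87 and 0.877 CPM against 0.373 and 0.475 CPM in the control (log2 fold change 1.57, SE 0.630, edgeR adjusted p = 0.256). For both genes the knockdown libraries lay above the control libraries. RpS10a had 1.67 and 1.00 CPM against 1.13 and 0.846 CPM, and its groups overlapped (log2 fold change 0.32, SE 0.494, edgeR adjusted p = 0.797).

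RpL23A, the lowest member here as in the piwi comparison, had 161 and 169 CPM in knockdown libraries, against 297 and 298 CPM in RnpS1 control libraries (log2 fold change -0.96, SE 0.302, edgeR adjusted p = 0.167). Replicates of each group were close for this gene, and the adjusted p lay between 0.0384 and 0.450 over the 8 fits without 1 library, under the threshold in 2 of them, those without a piwi control library. The stalk genes gave mixed values. RpLP1 had 1186 and 1042 CPM against 1244 and 1363 CPM in the control (log2 fold change -0.34, SE 0.110, edgeR adjusted p = 0.175). RpLP0, the stalk base, had 1034 and 1335 CPM against 1265 and 1638 CPM, with overlapping groups (log2 fold change -0.41, SE 0.190, edgeR adjusted p = 0.314). RpLP2 had 811 and 634 CPM against 594 and 510.1 CPM (log2 fold change 0.27, SE 0.144, edgeR adjusted p = 0.377).

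RpS15Aa had 1132 and 754 CPM in knockdown libraries, against 601 and 636 CPM in RnpS1 control libraries (log2 fold change 0.49, SE 0.178, edgeR adjusted p = 0.216). The replicates differed widely, and the fold change was 0.19 without the first knockdown library and 0.75 without the second. RpL22 had 58.1 and 42.9 CPM against 77.6 and 43.1 CPM, and the fold change was 0.11 without the first control library (log2 fold change -0.38 with it, SE 0.273, edgeR adjusted p = 0.526). RpS6 gave a fold change near 0, with 1511 and 1557 CPM against 1422 and 1405 CPM (log2 fold change 0.0030, SE 0.120, edgeR adjusted p = 0.999). RpS2 had 820.1 and 1156 CPM against 1006 and 1261 CPM (log2 fold change -0.31, SE 0.251, edgeR adjusted p = 0.570).

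No marker gene was called in the knockdown by edgeR, and the sums overlapped in most lists. All 18 eggshell genes had negative values there. Muscle sheath genes summed to 911 and 1624 CPM in knockdown libraries, against 714 and 1622 CPM in RnpS1 control libraries, fat body genes to 1297 and 5197 CPM against 5329 and 8209 CPM, and haemocyte genes to 425 and 647 CPM against 459 and 626 CPM. Gut genes summed to 145 and 253 CPM against 265 and 86.8 CPM. Germline genes summed to 4754 and 4485 CPM against 4707 and 4627 CPM, and follicle and early somatic genes to 159 and 149 CPM against 96.0 and 136 CPM. The part of these cell types in the knockdown values was not tested.

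**Figure D3:**
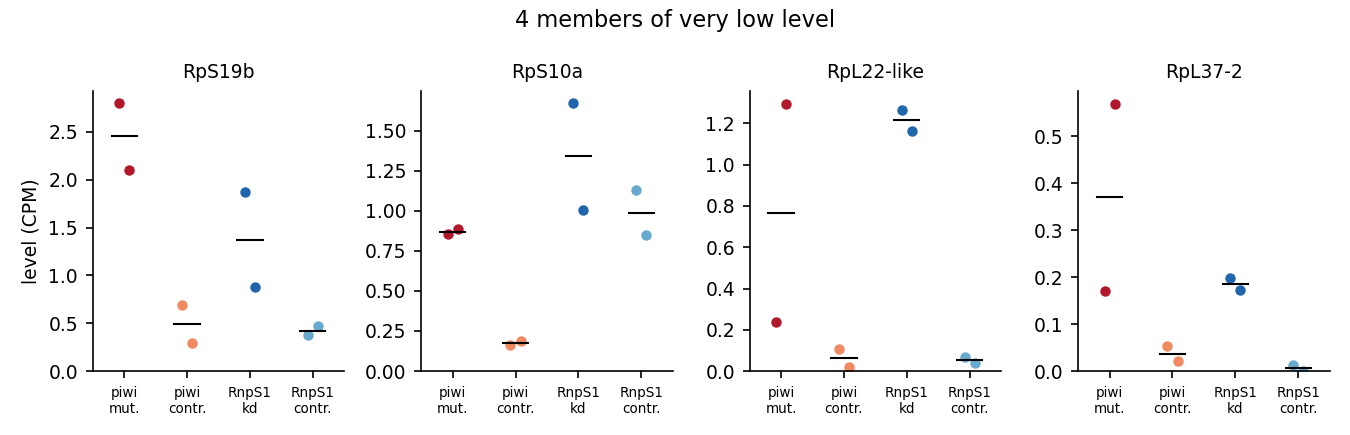
CPM (vertical axes from 0, each with its own scale) of 4 members of very low level in the 4 groups; points are libraries and black lines the means of 2. RpS19b, RpL22-like and RpL37-2 have both libraries of piwi mutant and of RnpS1 knockdown above both of their own controls, while RpS10a in the knockdown overlaps its control.

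Counts were too low to test 4 members. RpL37-2, the second copy of RpL37, had 37 reads in the mutant group, 3 in the piwi control, 30 in the knockdown and 1 in the RnpS1 control. RpS28-like had 3 reads in the mutant and 0 in the piwi control, then 5 in the knockdown and 1 in the RnpS1 control. RpL10Aa had 2 reads in the mutant and 0 in the other groups, and RpS28a had 1 read in the knockdown and 0 elsewhere. The last 2 were at or under 3 reads in every group, which is the limit a count of 0 allows, so no fold is given.

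In flies the loss of exon junction complex components is known to disturb the splicing of long introns, and few of these genes have one. Members tested had a median of 2 introns and an exon length of 927 bases, against 3 introns and 2056 bases over the 9521 protein-coding genes tested. A longest intron of 1000 bases or more was found in 5 of 83 members (6.02%), against 30.3% of protein-coding genes. These were RpS27A, RpS7, RpS15Aa, RpS5a and RpL22, and their log2 fold changes in the knockdown lay between -0.38 and 0.49 with none called. The other 78 members had a median log2 fold change of 0.04 in the knockdown. Annotated snoRNA genes lie inside 26 members (31.3%), against 0.756% of protein-coding genes, and RpS5a alone holds 14. In the piwi mutant the median log2 fold change was -0.24 for these 26 hosts and -0.15 for the other 57 members, and 0.01 against 0.07 in the knockdown.

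Asked directly, the change in the knockdown and the change in the piwi mutant passed the test of their difference for no member. Of 83 members 0 were called higher and 0 lower in the difference of the changes (knockdown change minus mutant change), against 0.288% and 0.364% of all genes tested by edgeR (0.652% in either direction). At an unadjusted p under 0.05, 14 members were higher (background 6.94% of all genes) and 4 lower (background 8.38%), or 21.7% of members against 15.3% of all genes in either direction. DESeq2 called 5 members higher and 2 lower, against 3.44% and 4.59% of all genes (8.03% in either direction). The median difference was 0.23 on the log2 scale, against 0.0054 over all genes, with 63 members positive. The smallest p-values belonged to RpL36 (difference 0.75, SE 0.192, edgeR adjusted p = 0.144), RpLP1 (-0.60, SE 0.156, edgeR adjusted p = 0.154) and RpL34a (0.69, SE 0.191, edgeR adjusted p = 0.175). RpL7A followed with 0.68. At the ends of the range stood RpS10a (-1.82), RpL22 (-0.81) and RpL37A (-0.71) on the low side, and RpL22-like (0.85), RpS15Aa (0.80) and RpS14b (0.76) on the high side. For the 13 members on the X chromosome the median difference was 0.48, and for the 70 autosomal members tested it was 0.19, a description with no test.

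The controls, which differ by the tj-GAL4 driver as far as the labels tell, were set against each other to see how far these genes vary without either perturbation. Between RnpS1 control and piwi control, 4 members were called higher and 4 lower, against 1.71% and 2.15% of all genes tested by edgeR. The 8 members are 9.64% of the 83 tested, against 3.85% of all genes called in either direction. At an unadjusted p under 0.05, 9 members were higher (background 11.2% of all genes) and 20 lower (background 10.2%), or 34.9% of members against 21.4% of all genes. DESeq2 called 10 members higher and 15 lower, against 7.71% and 7.1% of all genes (14.8% in either direction). The median log2 fold change of the members was -0.07, against 0.012 over all genes. These libraries are also the controls of the comparisons above, so the values below are not independent of them. Other rows differed far more: FBgn0085797, not a member, had 17597 and 12192 CPM in piwi control libraries, against 0.293 and 5.22 CPM in RnpS1 control libraries. It had 21311 and 23891 CPM in piwi mutant libraries and 0.949 and 1.90 CPM in knockdown libraries. The cause was not tested. Which library preparations or sequencing runs the libraries shared is not given in the sources used here, so genotype and batch cannot be told apart.

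RpL22 had the largest difference of the 8, with 77.6 and 43.1 CPM in RnpS1 control libraries, against 18.1 and 20.2 CPM in piwi control libraries (log2 fold change 1.64, SE 0.281, edgeR adjusted p = 0.0308). RpL41 had 5512 and 3696 CPM against 1759 and 1966 CPM in the piwi control (log2 fold change 1.29, SE 0.248, edgeR adjusted p = 0.0410). RpL37A had 778 and 541 CPM against 270.2 and 289 CPM (log2 fold change 1.22, SE 0.192, edgeR adjusted p = 0.0253). RpLP1 had 1244 and 1363 CPM against 749 and 819 CPM (log2 fold change 0.71, SE 0.111, edgeR adjusted p = 0.0240). In all 4 genes the piwi control was the lowest of the 4 groups, and both piwi mutant libraries lay above both piwi control libraries. RpS10a, at 1.13 and 0.846 CPM against 0.160 and 0.190 CPM in the piwi control, did not pass (log2 fold change 2.46, SE 0.547, edgeR adjusted p = 0.0587).

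The 4 members that were lower in the RnpS1 control included RpL32, the gene formerly called rp49 and widely used to normalise fly RT-qPCR. RpL32 had 598 and 644 CPM in RnpS1 control libraries, against 1037 and 873 CPM in piwi control libraries (log2 fold change -0.64, SE 0.117, edgeR adjusted p = 0.0358). Within each study arm RpL32 hardly differed, with 1069 and 1078 CPM in piwi mutant libraries (log2 fold change 0.0093, SE 0.117) and 736 and 699.7 CPM in knockdown libraries (log2 fold change 0.09, SE 0.117). RpS9 had 614 and 669 CPM against 1129 and 1005 CPM in the piwi control (log2 fold change -0.75, SE 0.142, edgeR adjusted p = 0.0379). RpS15Aa had 601 and 636 CPM against 1181 and 1097 CPM (log2 fold change -0.90, SE 0.179, edgeR adjusted p = 0.0446). RpS14b had 54.1 and 38.4 CPM against 134 and 106 CPM (log2 fold change -1.40, SE 0.236, edgeR adjusted p = 0.0293). None of the 8 calls was made when either piwi control library, either piwi mutant library or the first RnpS1 control library was left out, and RpL22 and RpL37A alone remained without the second RnpS1 control library. The call of RpL32 was also lost without the second knockdown library.

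**Figure D4:**
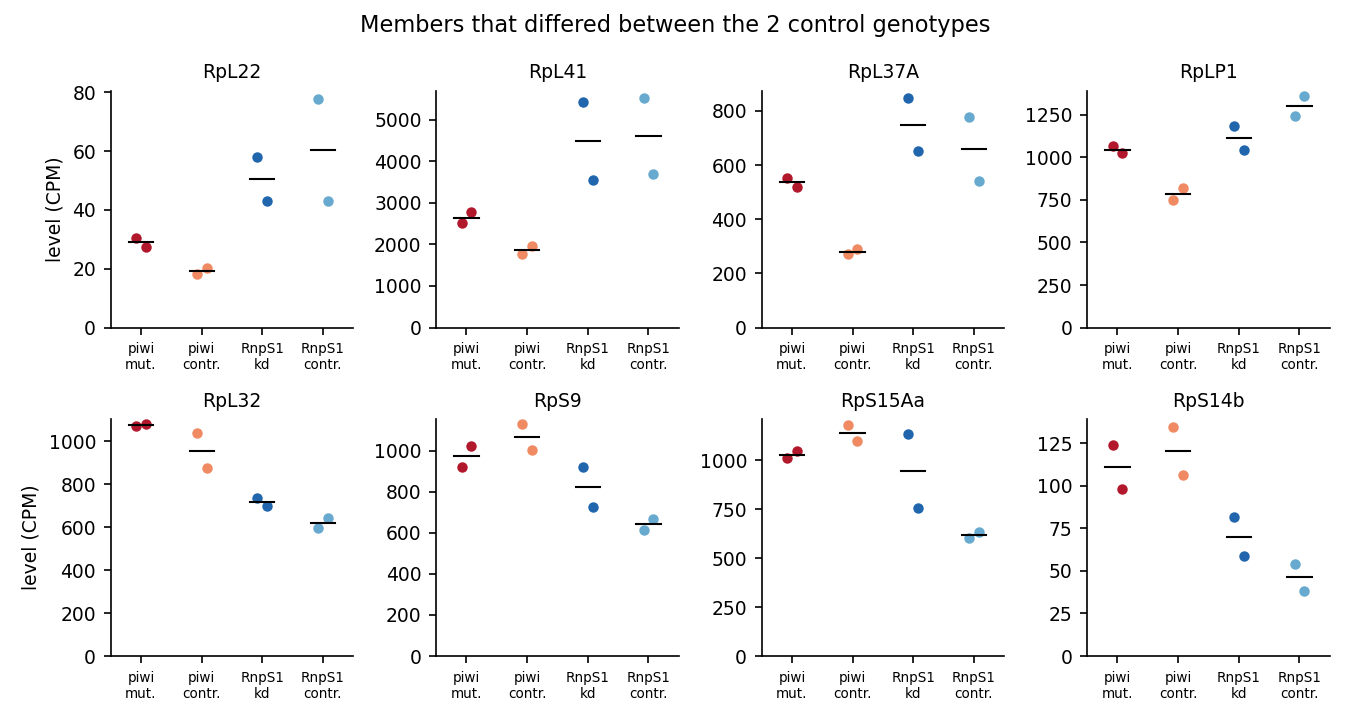
CPM (vertical axes from 0, each with its own scale) of the 8 members that differed between the control genotypes, in the 4 groups; points are libraries and black lines the means of 2. The top row holds the members that were higher in RnpS1 control than in piwi control and the bottom row those that were lower.

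Of the 3 shortest members tested, RpL41 was the one that passed between the controls. The 3 tested members with exons of under 500 bases, RpL39, RpL41 and RpL29, had log2 fold changes between 0.29 and 1.29 in RnpS1 control against piwi control. RpS28a, RpS28-like and RpL37-2 are also under that length but were not tested. RpL39 had 523 and 425 CPM against 216 and 321 CPM (log2 fold change 0.80, SE 0.263, edgeR adjusted p = 0.146). Over all 80 members at or above 20 CPM, the Spearman correlation of exon length with this fold change was -0.086, a description with no test over genes that share the same libraries. RpL41 and RpL39 also differed widely between replicates of the RnpS1 groups, RpL41 with 5414 and 3547 CPM in the knockdown.

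Several ribosomal proteins are encoded by gene pairs, whose balance can differ between tissues. Reads that align to both copies equally were left out of the counts, so the levels of near-identical copies are uncertain. RpS5b, the copy known for its role in the female germline, made up 58.2% and 55.9% of the RpS5a and RpS5b reads in mutant libraries and 52.9% and 54.6% in piwi control libraries. Its share was 53.0% and 47.0% in knockdown libraries, against 57.4% and 44.8% in RnpS1 control libraries. RpS5a had 816 and 845 CPM in the mutant, against 1025 and 749 CPM in its control, and RpS5b had 1139 and 1071 CPM against 1149 and 902 CPM, with overlapping groups in both genes. RpL34b took 74.7% and 70.6% of the RpL34 pair in mutant libraries, against 71.3% and 65.6% in piwi control libraries. In the knockdown it took 65.3% in both libraries, against 76.3% and 69.9% in the RnpS1 control.

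RpS14a and RpS14b are neighbouring copies on the X chromosome. RpS14b took 38.7% and 34.8% of their reads in mutant libraries and 39.2% and 40.0% in piwi control libraries. In knockdown libraries its share was 16.3% and 15.2%, against 16.0% and 13.4% in RnpS1 control libraries. The balance therefore separated the 4 libraries of the piwi comparison from the 4 of the RnpS1 comparison, with no overlap, and not the tested groups from their controls. RpS14a moved the other way, with 285 and 249 CPM in the RnpS1 control against 208 and 159.5 CPM in the piwi control (log2 fold change 0.52, SE 0.172, edgeR adjusted p = 0.149).

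RpL24 and RpL24-like are not 2 copies of 1 ribosomal protein, since RpL24-like is a relative of an assembly factor. RpL24-like took 20.6% and 20.2% of their reads in mutant libraries, against 31.2% and 31.8% in piwi control libraries. In the knockdown the share was 19.3% and 17.8%, against 18.0% and 16.3% in the RnpS1 control, so the piwi control stood apart from the other 3 groups. RpL24 had 918 and 743 CPM in mutant libraries, against 576 and 524 CPM in piwi control libraries (log2 fold change 0.43, SE 0.146, edgeR adjusted p = 0.0922), and RpL24-like had 239 and 188 CPM against 261 and 244 CPM (log2 fold change -0.41, SE 0.186, edgeR adjusted p = 0.179).

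The remaining pairs were strongly unequal. RpL7-like and RpLP0-like are likewise relatives of assembly factors and not second copies. RpL7-like took between 5.45% and 9.64% of its reads with RpL7 over the 8 libraries. RpLP0-like took between 4.97% and 8.89% of its reads with RpLP0. RpS15Ab took between 2.69% and 4.90% of the RpS15A pair. RpL10Ab and RpS28b carried nearly all reads of their pairs, with 962.9 and 1052 CPM on average over all libraries. RpS19a had 534 and 505 CPM in the mutant, against 480.0 and 461 CPM in its control, and RpL37-1 had 715 and 736 CPM against 949.96 and 725 CPM.

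**Figure D5:**
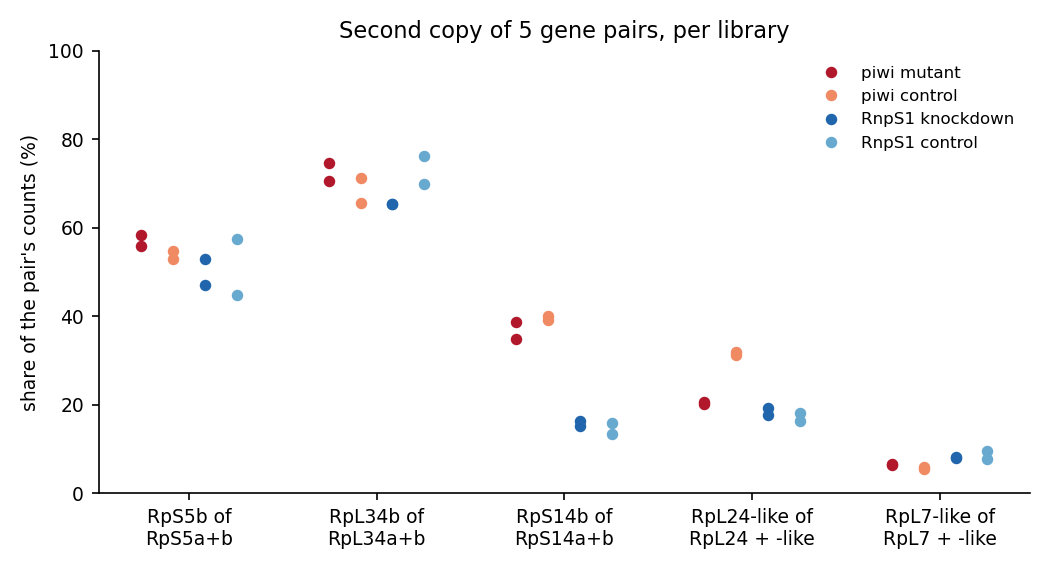
Share of the second-named gene (%, vertical axis) in the summed counts of 5 pairs of related genes. Each point is 1 library, coloured by group. RpL24-like and RpL7-like are relatives of assembly factors and not second copies. RpS14b lies between 34.8% and 40.0% in the 4 libraries of the piwi comparison and between 13.4% and 16.3% in the 4 of the RnpS1 comparison, and RpL24-like is highest in the piwi control.

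Members lie on every large chromosome arm, with 18 on 2L, 19 on 2R, 13 on 3L, 23 on 3R, 13 on X and 1 on chromosome 4. Some sit in repeat-rich chromatin, and these were picked out after their values were seen. RpL38, RpL5 and RpL15 lie in pericentric heterochromatin, where Piwi-directed silencing acts on neighbouring transposons. RpL38 had 526 and 555 CPM in mutant libraries, against 362 and 423 CPM in piwi control libraries (log2 fold change 0.30, SE 0.222, edgeR adjusted p = 0.382). It had 527 and 316 CPM in knockdown libraries, against 297 and 257 CPM in RnpS1 control libraries (log2 fold change 0.49, SE 0.223, edgeR adjusted p = 0.306). RpL5 and RpL15 had log2 fold changes of -0.20 and -0.017 in the mutant and of 0.028 and -0.17 in the knockdown, and RpS3A on chromosome 4 had -0.14 and -0.057. None of these genes passed the test in either comparison.

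Genes that build, regulate or use the ribosome gave a few calls beside the members. Of 33 ribosome biogenesis factors, 6 fell in the piwi mutant and 0 rose, with a median log2 fold change of -0.30, beside 5.06% of all genes lower and 6.37% higher. Nop17l, related to a yeast factor that assembles box C/D snoRNPs, had 93.6 and 93.1 CPM in mutant libraries, against 183 and 188 CPM in piwi control libraries (log2 fold change -1.15, SE 0.142, edgeR adjusted p = 0.0126). Nop60B, the pseudouridine synthase of box H/ACA snoRNPs, had 692 and 718 CPM against 896 and 952 CPM (log2 fold change -0.55, SE 0.0959, edgeR adjusted p = 0.0213). Tsr1 (-0.43), bys (-0.36), Mys45A (-0.36) and nop5 (-0.39) were the other 4. Of the 16 other settings and left-out libraries, 13 kept the call of Nop17l, 12 that of Nop60B, 8 that of Tsr1, 5 that of nop5, 4 that of Mys45A and 3 that of bys. None of the 33 was called in the knockdown by edgeR, with 24 of them negative. Of 9 RNA polymerase I genes, TAF1B, part of the promoter factor of rRNA genes, fell in both comparisons. As the only gene of its list called, TAF1B made 11.1% in each, beside 5.06% and 0.738% of all genes lower. It had 57.6 and 55.3 CPM in the mutant against 71.3 and 78.1 CPM in its control, and 59.1 and 50.3 CPM in the knockdown against 81.3 and 77.5 CPM in RnpS1 control libraries (log2 fold changes -0.56 and -0.66, SE 0.104 each, edgeR adjusted p = 0.0237 and 0.0364). The call in the mutant was kept in 9 of the 16 alternatives and that in the knockdown in 3.

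A few regulators of growth passed the test. Of 21 such genes, 3 fell in the mutant and 0 rose, beside 5.06% of all genes lower and 6.37% higher: Tsc1 (-0.60), which restrains TOR, Sesn (-0.50), a stress-induced TOR inhibitor, and mTor (-0.61), the kinase itself. Their calls were kept in 12, 7 and 9 of the 16 alternatives. In the knockdown 1 rose and 2 fell, beside 0.882% of all genes higher and 0.738% lower. Xrp1, a transcription factor induced in cells short of ribosomal protein, had 121 and 112 CPM in knockdown libraries, against 45.9 and 51.7 CPM in RnpS1 control libraries (log2 fold change 1.14, SE 0.153, edgeR adjusted p = 0.0251). Myc, an activator of ribosome production, had 346 and 382 CPM against 547 and 505 CPM (log2 fold change -0.65, SE 0.114, edgeR adjusted p = 0.0492). Mnt, its antagonist, had 174 and 156 CPM against 260.0 and 231 CPM (log2 fold change -0.69, SE 0.123, edgeR adjusted p = 0.0498). Of the 16 other settings and left-out libraries, 8 kept the call of Xrp1, and 3 each kept those of Myc and Mnt.

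Translation factors followed with few calls. Of 27 initiation factors, eIF4H1 fell in the mutant (-0.48), with a median log2 fold change of -0.20 over the list. That is 3.70% of the list, beside 5.06% of all genes lower. In the knockdown 0 were called by edgeR, beside 1.62% of all genes in either direction. Of 6 elongation factors, 1 was called higher in the mutant (16.7%, beside 6.37% of all genes). This was eEF1alpha2, with 3.34 and 4.34 CPM against 0.695 and 0.507 CPM (log2 fold change 2.52, SE 0.485, edgeR adjusted p = 0.0266). It is a second copy of the elongation factor that delivers tRNA to the ribosome and is known from the nervous system and muscle. In knockdown libraries eEF1alpha2 had 4.19 and 4.71 CPM, against 1.38 and 2.52 CPM in RnpS1 control libraries, and was not called. The median log2 fold change of muscle sheath genes was 2.43 in the mutant and 0.15 in the knockdown. The part of muscle tissue in these values was not tested. Of 70 mitochondrial ribosomal protein genes tested, mRpS28 rose in the mutant (0.72), which is 1.43% beside 6.37% of all genes higher. None of the 70 was called in the knockdown by edgeR. Their medians were -0.045 in the mutant and -0.014 in the knockdown. The calls in the mutant were kept in 8 of the 16 alternatives for eIF4H1, 11 for eEF1alpha2 and 5 for mRpS28. Between RnpS1 control and piwi control, 1.71% of all genes were called higher and 2.15% lower. Higher were 3 of 27 initiation factors (eIF6, eIF4B and eIF4E1) and 3 of 33 biogenesis factors (eIF6, mbm and Rlb1). So were 2 of 9 polymerase I genes (Polr1E and Polr1F) and 1 of 70 mitochondrial genes (mRpS28). Lower was 1 of 21 growth regulators (Tsc1).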

How the data were processed

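Total RNA from ovaries was depleted of ribosomal RNA and made into strand-specific libraries, per the labels' protocols. The submitters' processing notes name the builds dm3 and BDGP5 and the tools HTSeq 0.5.3p9, DESeq, TopHat2 2.0.9 and CASAVA (1.8, 1.8.2). The deposited values used are raw read counts per gene. Rows that name no gene stayed out of library sizes. Over gene, no-feature and ambiguous entries together, no feature was assigned for 1.91% to 10.7% and an ambiguous one for 1.19% to 1.63%. Non-unique alignments made up 43.2% to 66.0% of a larger base, which adds them to those entries. CPM is over the sum of gene rows. Symbols came from a table of current names, which matched 15002 of 15682 identifiers. Exon lengths, introns and chromosome arms came from the BDGP6 annotation, another build, so no position is given.

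All 8 libraries were fitted together in edgeR 4.0.16 under R 4.3.3 with a term per group, TMM factors and filterByExpr, which kept 10434 genes. The quasi-likelihood test was used, with Benjamini-Hochberg adjustment over all of them and a threshold of 0.05. SE is the absolute log2 fold change over the root of F. The procedure was tested on simulated counts. Alternatives were DESeq2 1.42.0, library totals without TMM, totals without the 10 highest genes, factors from other genes, no filter, only the groups compared, a replicate block and leaving out each library. Members and gene lists were chosen with earlier results of these data known. Named members are those called, the 5 smallest p, the 3 highest and 3 lowest changes, the 5 highest and lowest levels, pairs, stalk, ubiquitin fusion and 5S genes, RpS6, RpS2 and those not tested. RpL38, RpL15, RpS3A and RpL39 were added after their values were seen. From other lists, up to 6 called genes per comparison are named. Some members that this rule picks are not reported here.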

Additional observations from a re-analysis of the deposited data

How the results depend on the processing

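Scaling moved the centre of all genes, and members moved with it. With library totals alone, the median log2 fold change of members was -0.013 in the piwi comparison and 0.17 in the RnpS1 comparison, and without the 10 highest genes it was 0.014 and 0.17. The median of all genes was 0.17 and 0.12 with totals alone, so members minus all genes remained at -0.18 and 0.05. The split of positive and negative members became 39 and 44 in the piwi comparison and 69 and 14 in the RnpS1 comparison. The member RpL41 is among the 10 highest genes. With RpL41 kept in the member sum but not in the total, mean values were 7.96% in the piwi mutant against 7.95% in its control. They were 8.42% in the knockdown against 7.69% in the RnpS1 control. These values are therefore not strict shares of the reduced total. Over TMM effective library sizes the mean shares were 6.87% against 7.80% and 7.60% against 7.56%, so the knockdown excess nearly vanished and the mutant lay below its control. DESeq2 called more members: 6 higher and 13 lower in the piwi mutant, 1 and 2 in the knockdown, 5 and 2 in the difference of changes and 10 and 15 between controls. With no filter 1 member was higher in the mutant. Fits of only the groups compared called 1 higher and 2 lower in the mutant and 0 and 1 between controls.

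Same-numbered libraries had a correlation of deviations of -0.177 in the piwi groups and 0.207 in the RnpS1 groups, so the numbers were not taken to pair libraries. With the replicate block 1 member was higher in the mutant and 1 lower between controls, and RpS2 between controls turned to -0.0014. A crossed block, chosen after seeing the data, called 0 higher in the mutant and 0 and 0 between controls.

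Leaving out single libraries gave 0 to 1 members higher and 0 to 1 lower in the mutant, with medians of -0.28 to -0.088, and 0 higher and 0 to 1 lower in the knockdown, with medians of 0.017 to 0.11. The first piwi control library, when left out, gave the median of -0.088 and the second gave -0.28. The median difference of changes ranged over 0.11 to 0.33, and between controls -0.23 to 0.024, with 0 to 4 higher and 0 to 6 lower. Some values near 0 turned sign. RpS2 became 0.085 in the piwi comparison without piwi control replicate 1, in a range from -0.49. Its difference of changes became 0.049, 0.18, 0.16 and 0.092 without piwi mutant replicate 2, piwi control replicate 2, knockdown replicate 1 and RnpS1 control replicate 2, with a lowest value of -0.40. Between controls RpS2 became -0.24 and -0.15 without the second library of the piwi and RnpS1 controls, with a highest value of 0.33, and RpS6 -0.078 without the second piwi control library, in a range up to 0.19. RpL22 in the knockdown became 0.11 without RnpS1 control replicate 1, in a range from -0.74. RpS6 there became -0.022 with no filter, -0.030 without knockdown replicate 2 and -0.0044 without RnpS1 control replicate 2, in a range up to 0.040 over left-out libraries and up to 0.12 over all settings. The difference of RpL22-like became -0.61 without piwi control replicate 1, in a range up to 2.56. The cause was not tested.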

Other observations

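Large subunit reads exceeded small subunit reads in every library, in sums over 51 RpL and 36 RpS genes. The number of genes thus enters the ratio. The ratio was 1.44 and 1.47 in piwi mutant libraries, against 1.37 and 1.41 in piwi control libraries, and 1.49 and 1.45 in knockdown libraries, against 1.59 and 1.52 in RnpS1 control libraries. The mutant ratios lay above those of their control and the knockdown ratios below, with no overlap within either comparison, though 2 libraries a group cannot give an exact permutation p below 0.333.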
